A study of Mus musculus with 11 samples.

Results

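The 3 wild-type (WT) heart libraries of a mouse study of cardiac macrophages were described on their own, over all genes. They were chosen by their labels, WT 1, WT 2 and WT 3, and make up 3 of the 11 libraries of the series. Each holds RNA of a whole heart sample, frozen in liquid nitrogen, from male mice of wild-type genotype aged 8 to 12 weeks. These mice had received diphtheria toxin at 0.01 µg per g of body weight, 3 times per week for 3 weeks, as controls for mice that carry the receptor of the toxin, so the transcriptome described is that of toxin-treated wild-type hearts. The labels give no strain and no time of day, and nothing in them says that the libraries came from separate mice, so an SD over the 3 libraries may be partly technical. With 1 group of 3 libraries no test was made, and every difference between libraries is given as a description.

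The heart contracts without rest, and as background its working muscle cells, the cardiomyocytes, draw most of their ATP from oxidative phosphorylation in densely packed mitochondria fed largely by fatty acids. Contraction takes place in the sarcomere, where myosin heads pull on actin filaments once calcium binds the troponin complex. Atria and ventricles build their sarcomeres from partly different gene copies, and capillary endothelium, fibroblasts, pericytes and resident macrophages lie between the muscle cells. In whole-tissue RNA, fewer cells of a type and less RNA per cell cannot be told apart.

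Levels between genes are given as TPM, a transcript level that takes gene length into account, and the spread between libraries as normalised counts, which are reads brought to the mean depth of the 3 libraries. The libraries held an estimated 14295229, 14860043 and 14606872 reads, so that 1 normalised count is about 1 read and the limit that a count of 0 allows, 3 reads, is 2.94 to 3.05 normalised counts. At least 1 read was found in all 3 libraries for 17006 of 35584 genes, and at least 1 TPM for 11305 of 21807 protein-coding genes. The labelled sex was matched by the Y-linked Ddx3y, at 1127, 1241 and 1249.8 normalised counts, and by Xist at 1.02, 8.32 and 8.58.

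WT 1 stood apart from the other libraries in a small set of genes. By a rule chosen after the values were seen (at least 2-fold from both other libraries, with these within 1.5-fold of each other, and at least 50 normalised counts on average), 26 of 10901 genes set WT 1 apart, against 5 for WT 2 and 7 for WT 3. These genes include members of the circadian clock, and Nnt, Mmrn1 and Wdfy1, all described further on, where counts that rest on WT 1 are also given without it.

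Genes of the mitochondrial genome led the transcriptome. The 13 protein-coding genes of this small circular genome, which encode core subunits of the respiratory chain and ATP synthase, took 44.1%, 44.9% and 44.3% of the summed TPM in WT 1, WT 2 and WT 3 (44.4% ± 0.390, SD, n = 3). The libraries nearly coincided, with WT 2 highest. mt-Co1, the catalytic subunit of cytochrome c oxidase, was the most abundant gene at 71155, 72890 and 74161 TPM. It was followed by the ATP synthase gene mt-Atp6 at 54281 ± 890.0 and the cytochrome c oxidase genes mt-Co3 at 54208 ± 1019 and mt-Co2 at 45123 ± 1883 TPM (mean ± SD). The mitochondrial gene mt-Nd6, at 18604 ± 634 TPM, lies on the other strand from its neighbours, and mt-Atp8 overlaps mt-Atp6, so how reads were divided among such genes is uncertain. In the count table, which also lists mitochondrial ribosomal and transfer RNA genes, the mitochondrial genome took 33.3% ± 0.423 of the reads.

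The TPM table also lists nuclear copies of mitochondrial genes as unprocessed pseudogenes, led by Gm28661 (18170, 20152 and 22077 TPM), Gm29216 (13714, 18526 and 15397) and Gm28438 (8672, 9388 and 8529) on chromosome 1. Together the unprocessed pseudogenes took 4.26%, 5.04% and 4.84% of the TPM. These copies share sequence with mitochondrial genes, so their levels are uncertain. In the count table protein-coding genes took 98.2% ± 0.0455 of the reads.

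Few genes carried most of the signal. The 10 most abundant genes held 41.9% ± 0.372 of the TPM, 16 or 17 genes held 50% of it, and 2114 to 2156 genes held 90%. In the count table, which favours long genes, 79 to 84 genes held 50% of the reads and 4029 to 4062 held 90%. Outside the mitochondrial genome the distribution was flatter, with 18.6% ± 0.523 in the 10 most abundant genes and 202 to 209 genes for 50%. That set still holds the nuclear copies of mitochondrial genes, whose levels are uncertain, and the unprocessed pseudogenes took 8.49% ± 0.780 of its TPM.

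**Figure D1:**
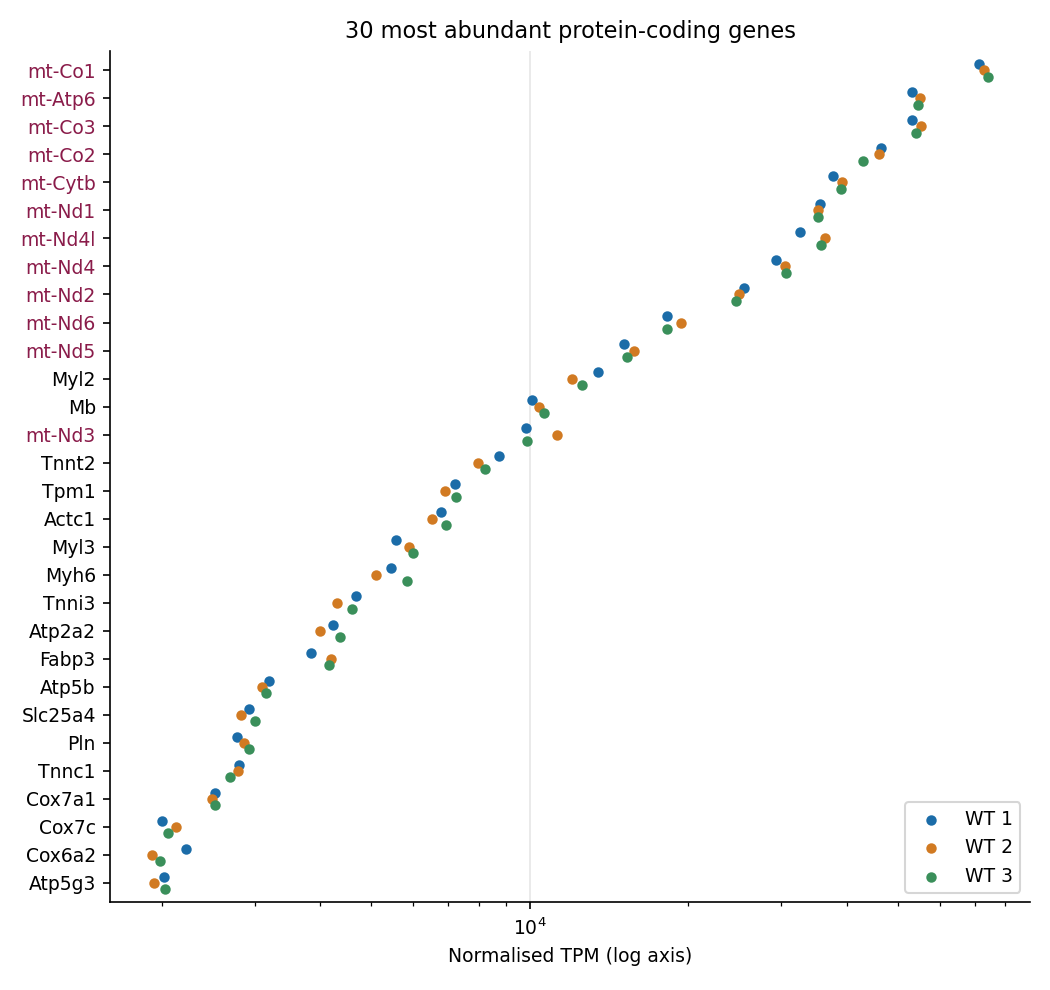
Normalised TPM (log axis) of the 30 protein-coding genes with the highest mean, 1 point per WT library. Labels in red are genes of the mitochondrial genome, which lead the order; Myl2 is the first nuclear gene, at 13483, 12049 and 12560 TPM, and the 3 points of a gene nearly coincide.

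Among nuclear protein-coding genes, the ventricular regulatory light chain of myosin, Myl2, stood first at 13483, 12049 and 12560 TPM. Myoglobin (Mb), which stores oxygen in muscle, followed at 10107, 10423 and 10621 TPM. Neither spread widely, and Myl2 was highest in WT 1. The next places were all sarcomere genes: troponin T (Tnnt2, 8305 ± 392), tropomyosin (Tpm1, 7108 ± 187), cardiac actin (Actc1, 6745 ± 197), the ventricular essential light chain Myl3 (5821 ± 232), the alpha heavy chain of myosin Myh6 (5466 ± 366) and troponin I (Tnni3, 4526 ± 198 TPM). The calcium pump of the sarcoplasmic reticulum, Atp2a2, at 4199 ± 189 TPM, and the fatty acid binding protein Fabp3, at 4058 ± 189, closed the first 10. By reads, which favour long transcripts, Myh6 had a mean of 383343 normalised counts against 66114 for Myl2.

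The remaining places among the 30 most abundant protein-coding genes were held by energy metabolism, calcium handling and troponin. They include the ATP synthase genes Atp5b (3150 ± 52.9 TPM) and Atp5g3 (1993 ± 54.4), the mitochondrial ATP/ADP carrier Slc25a4 (2916 ± 87.4), the calcium pump inhibitor phospholamban (Pln, 2854 ± 75.4) and cardiac troponin C (Tnnc1, 2761 ± 59.0). The cytochrome c oxidase genes Cox7a1 (2509.5 ± 16.8), Cox7c (2059.5 ± 62.8) and Cox6a2 (2040.5 ± 161) complete the group. Cox6a2 was highest in WT 1, at 2222, 1917 and 1982 TPM.

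Where muscle uses alternative gene copies, the adult cardiac form dominated. Myh6 outnumbered Myh7, the beta heavy chain of the fetal mouse ventricle, by 42.9-, 44.9- and 50.6-fold in TPM in WT 1, WT 2 and WT 3. Cardiac troponin I (Tnni3) stood at 4526 ± 198 against 0.793 ± 0.119 TPM for the slow skeletal form Tnni1. Cardiac actin Actc1 made up 97.1, 95.6 and 98.0 percent of its pair with skeletal actin Acta1, a gene of the fetal heart and of hypertrophy. Acta1 was highest in WT 2, at 206, 303 and 144 TPM.

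Metabolic pairs also leaned to the muscle form. By ratios of mean TPM, the creatine kinase Ckm exceeded Ckb by 62.4-fold, and the insulin-regulated glucose carrier Slc2a4 exceeded Slc2a1 by 25.2-fold. The muscle form of carnitine palmitoyltransferase Cpt1b exceeded Cpt1a by 14.5-fold, and the ADP carrier Slc25a4 exceeded Slc25a5 by 14.5-fold. Among cytochrome c oxidase subunits the heart forms led as well, Cox6a2 over Cox6a1 by 14.4-fold, Cox8b over Cox8a by 8.55-fold and Cox7a1 over Cox7a2 by 5.54-fold. In glycolysis Pgam2 exceeded Pgam1 by 16-fold, Eno3 exceeded Eno1 by 6.73-fold and the heart form of lactate dehydrogenase Ldhb exceeded Ldha by 2.97-fold. Other pairs stood closer together, with the hexokinases Hk2 and Hk1 at a ratio of 1.21, the fatty acid sensors Ppara and Ppard at 0.852 and the potassium channel genes Kcnd2 and Kcnd3 at 2.03. Casq2, the cardiac calcium buffer, exceeded the skeletal Casq1 by 43.4-fold, and cardiac Tnnt2 exceeded Tnnt1 by 505-fold. The skeletal muscle calcium pump Atp2a1 was at 0.309 ± 0.162 TPM.

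The pairs of a ventricular with an atrial form differed between the libraries instead. Myl2 exceeded its atrial counterpart Myl7 by 24.7-, 52.9- and 146-fold in WT 1, WT 2 and WT 3. Myl3 exceeded the atrial Myl4 by 11.6-, 30.6- and 76.8-fold. Pln exceeded sarcolipin (Sln), the atrial inhibitor of the calcium pump, by 36.2-, 102- and 334-fold. All 3 ratios were lowest in WT 1 and highest in WT 3, while Pln itself was at 2773, 2865 and 2923 TPM.

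By class, genes for contraction and for nuclear-encoded oxidative phosphorylation took similar shares of the TPM, but 8.25% and 3.48% of the reads. The 55 sarcomere and Z-disc genes held 7.06%, 6.62% and 6.88% of the TPM. The 83 nuclear genes of the respiratory chain and ATP synthase held 6.93%, 6.56% and 6.75%. Both classes were lowest in WT 2, the library with the highest share for the mitochondrial genome. Of the nuclear part, the 18 ATP synthase genes held 2.17% ± 0.0603, the 37 complex I genes 1.82% ± 0.0470 and the 14 complex IV genes 1.77% ± 0.0496. Complex III, with 10 genes led by Uqcrq (1551 ± 41.2 TPM), held 0.762% ± 0.0244, and complex II, which also serves the citric acid cycle, 0.225% ± 0.00763. In normalised counts 29 of 37 complex I genes were lowest in WT 2, as were 33.4% of all genes averaging 10 or more normalised counts, here called the genes tested.

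**Figure D2:**
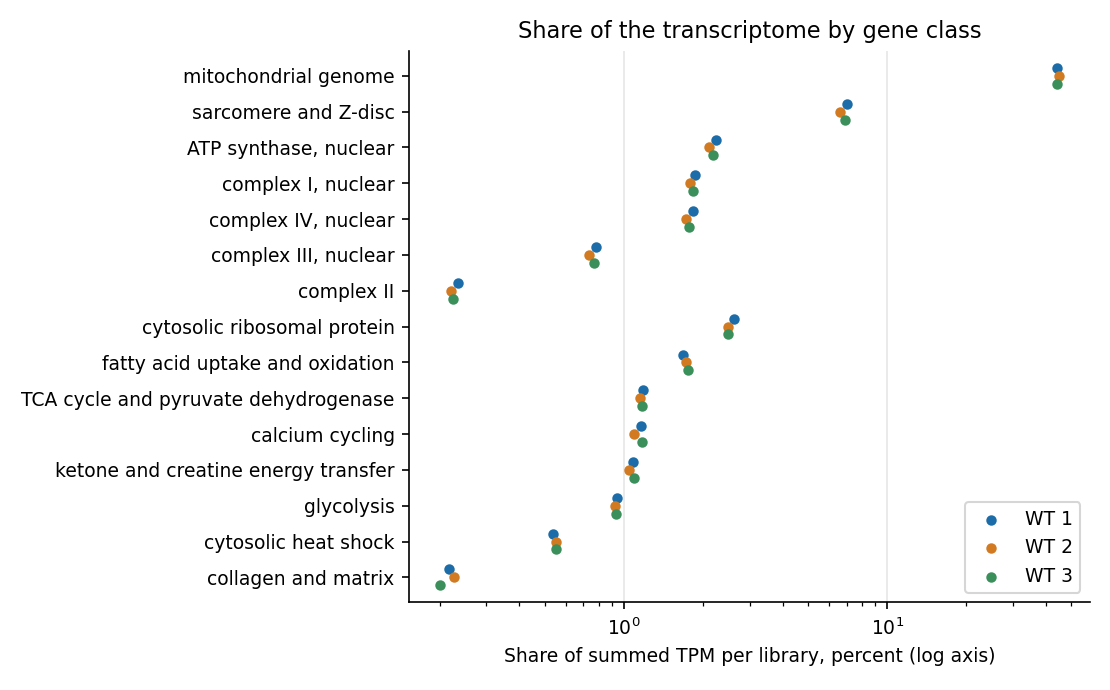
Share of the summed TPM (percent, log axis) taken by gene classes, 1 point per WT library. The mitochondrial genome holds 44.4% on average and the sarcomere and Z-disc genes 6.85%, and the 3 points of a class nearly coincide.

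Fuel use was represented by fatty acid genes above glycolysis. The 32 genes of fatty acid uptake and oxidation held 1.67%, 1.73% and 1.76% of the TPM, led by Fabp3, lipoprotein lipase (Lpl, 1334 ± 77.5 TPM), which frees fatty acids from lipoproteins, and the beta-oxidation enzymes Hadhb (1209.8 ± 32.0) and Ech1 (1102 ± 35.0). Of these genes, 20 of 32 were lowest in WT 1 in normalised counts, against 34.1% of all genes tested. The 23 citric acid cycle and pyruvate dehydrogenase genes held 1.17% ± 0.0174, with the malate dehydrogenases Mdh1 (1543 ± 7.60 TPM) and Mdh2 (1136 ± 32.6) ahead of Idh2 (1052 ± 28.5). Glycolysis, with 20 genes, held 0.931% ± 0.0109, led by Gapdh (1929 ± 36.6 TPM), Aldoa (1607 ± 19.8) and Ldhb (1229 ± 36.2). Ketone and creatine energy transfer held 1.07% ± 0.0212, with Ckm at 1929 ± 28.2 and the mitochondrial creatine kinase Ckmt2 at 1287 ± 23.7 TPM. None of the members of these 4 lists reached a 2-fold range over the 3 libraries, where 4.82% of all genes tested did. That share comes mostly from genes with few reads. It was 0.470% at 300 to 1000 normalised counts, 0.310% at 1000 to 3000 and 0.888% at 3000 to 10000.

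Calcium handling took a share of the TPM close to those of the fuel classes, and ion channel genes stood lower. The 27 calcium cycling genes held 1.14% ± 0.0382 of the TPM, most of it from Atp2a2 and Pln, followed by the calcium sensor S100a1 (635 ± 19.7 TPM) and the sodium pump regulator Fxyd1 (618 ± 36.8). Among 31 ion channel genes the highest were Kcnip2, a subunit of the transient outward potassium channel (99.4 ± 7.95 TPM), Kcnk3 (72.9 ± 6.87), and Abcc9 (70.8 ± 2.32) and Kcnj11 (64.0 ± 4.46), subunits of the ATP-sensitive potassium channel. The L-type calcium channel Cacna1c was at 50.2 ± 2.01 and the calcium release channel Ryr2 at 117 ± 12.0 TPM. At the intercalated disc, which joins the cells, Ctnnb1 (223 ± 12.0 TPM), desmoplakin (Dsp, 186 ± 1.26), Ctnna1 (169 ± 7.37) and the gap junction gene Gja1 (166 ± 14.8) led. Cacna1c and Ryr2 were named after their values were seen.

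Regulators stood lower than the leading genes of contraction. Of 30 cardiac transcription factor genes, Esrra, a regulator of oxidative metabolism, was highest at 77.8 ± 5.46 TPM, followed by Mef2d (54.4 ± 2.37), Gata4 (54.1 ± 1.86) and Mef2a (53.6 ± 1.03). Among 31 autonomic and hormone receptor genes, the thyroid hormone receptor Thra (45.0 ± 6.45 TPM) and the muscarinic receptor Chrm2 (32.0 ± 2.21), which slows the heart, led, ahead of Npr2 (27.1 ± 1.74) and the angiotensin receptor Agtr1a (23.4 ± 1.83). The beta-adrenergic receptor Adrb1, named after its value was seen, was at 8.01 ± 0.819 TPM. Signalling genes were led by the vascular growth factors Vegfa (189 ± 15.0) and Vegfb (182 ± 10.6 TPM), with Fgf1 at 79.8 ± 2.71 and Fgf13 at 56.3 ± 12.7.

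Ribosomal protein genes took a larger share of the TPM than fatty acid genes, and matrix and heat shock genes smaller ones. The 79 cytosolic ribosomal protein genes held 2.62%, 2.49% and 2.48% of the TPM, led by Rplp1 (716 ± 21.6 TPM), Rps29 (692 ± 33.8), Rpl13a (679 ± 15.4) and Rpl41 (616 ± 26.4). In normalised counts 52 of 79 were highest in WT 1, against 34.7% of all genes tested. The 42 collagen and matrix genes held 0.216%, 0.225% and 0.200%, with decorin (Dcn, 262 ± 25.1 TPM), Mgp (252 ± 44.9), Sparc (215 ± 13.9) and Sparcl1 (139 ± 5.0) in front. Heat shock genes held 0.545% ± 0.00792, led by the small chaperone Cryab (1559 ± 12.5 TPM), Hspa8 (744 ± 60.9), Hspb7 (629 ± 39.8) and Hsp90ab1 (601 ± 6.86). Interferon-stimulated genes were led by Ifitm3 (97.4 ± 6.34 TPM) and Bst2 (26.5 ± 3.79).

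Marker genes of the muscle cells far exceeded those of the other cells of the heart. The 15 working cardiomyocyte markers summed to 45266, 43528 and 45586 TPM. None of them reached a 2-fold range, where 4.82% of all genes tested and 0% of genes averaging 10000 or more normalised counts did. The 8 capillary endothelial markers came to 1692 ± 62.8 TPM, with the fatty acid transporter Cd36 (881 ± 23.8) and Fabp4 (565 ± 29.8) leading and Aqp1 (119.9 ± 8.88) next; cardiomyocytes also use Cd36. The 14 pan-endothelial markers summed to 503 ± 18, led by Egfl7 (132 ± 6.31), the junction gene Cdh5 (62.2, 60.1 and 60.9) and Pecam1 (55.4 ± 0.693 TPM). Arterial markers, led by the Notch ligand Dll4 (8.08 ± 1.28), came to 48.5 ± 2.79 TPM, lymphatic markers, led by the chemokine Ccl21a (22 ± 4.27), to 50.9 ± 5.19, and endocardial and venous markers to 57.1, 50.9 and 38.4.

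**Figure D3:**
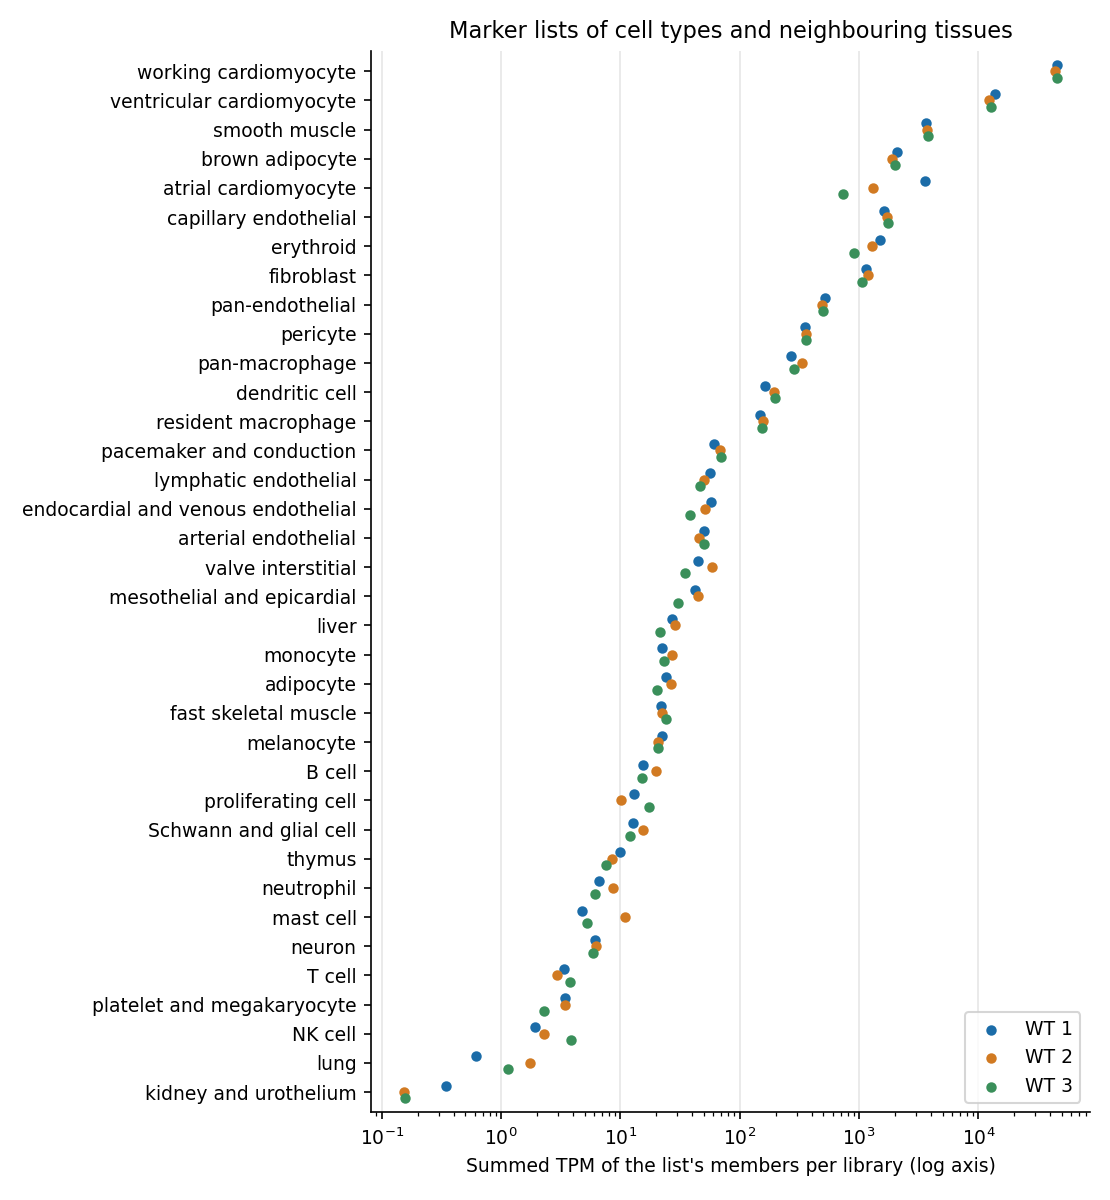
Summed TPM (log axis) of each cell type or tissue marker list, 1 point per WT library. Working cardiomyocyte markers lie highest, at 45266, 43528 and 45586 TPM, while the atrial list spreads over 3556, 1304 and 729 TPM in WT 1, WT 2 and WT 3, and the lung list lies at 0.618, 1.74 and 1.15 TPM.

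Fibroblasts and pericytes were represented by a few abundant markers. The fibroblast list summed to 1142, 1196 and 1049 TPM, led by gelsolin (Gsn, 495 ± 26.6), Dcn and the collagen Col3a1 (98.2 ± 1.11). The 10 pericyte markers summed to 355, 356 and 358 TPM, with Rgs5 (169 ± 3.28) and Abcc9 in the lead. The median range was 1.21-fold over the fibroblast list and 1.07-fold over the pericyte list. The smooth muscle list, at 3663, 3715 and 3757 TPM, consisted mostly of Pln and Des, which cardiomyocytes share. Of its 11 markers 3 reached a 2-fold range, beside 4.82% of all genes tested. The brown adipocyte list consisted mostly of Cox8b and Cpt1b, and its defining gene Ucp1 had 0 reads in all 3 libraries.

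Macrophage markers had the highest sum of the immune lists. The 18 pan-macrophage markers summed to 270.3, 334 and 286 TPM, led by lysozyme (Lyz2, 108 ± 12.1) and the complement genes C1qa (37.6 ± 2.94), C1qb (32.7 ± 5.44) and C1qc (29.4 ± 3.05). In normalised counts 14 of 18 were highest in WT 2, against 33.2% of all genes tested. The 14 markers of resident macrophages, long-lived cells of the heart wall, summed to 149, 155 and 154 TPM, led by Gas6 (58.3 ± 2.96), Cbr2 (20.1 ± 0.817), the chemokine Pf4 (17.8 ± 2.19) and the folate receptor Folr2 (13.2 ± 1.15). The next genes were named after their values were seen: the haemoglobin scavenger receptor Cd163 was at 4.92 ± 0.258, the phagocytic receptor Mertk at 2.81 ± 0.103 and Siglec1, the CD169 gene, at 0.795 ± 0.0622 TPM. The resident markers named here were close in the libraries. Of the 14 tested, Vsig4 alone reached a 2-fold range (7.14%, beside 4.82% of all genes tested).

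Other immune lists ranged from dendritic to NK cells. The antigen presentation genes Cd74 (98.7 ± 8.08), H2-Aa (46.1 ± 7.84) and H2-Ab1 (31.7 ± 3.53 TPM) led the dendritic cell list, and of 7 class II genes 5 were lowest in WT 1, against 34.1% of all genes tested. The dendritic cell list summed to 161, 192 and 197 TPM, more than the resident macrophage list. Most of that sum came from Cd74, H2-Aa and H2-Ab1, while the median of its 10 members was 0.726 TPM. These antigen presentation genes are not particular to dendritic cells, so the sums do not compare the cell types. The monocyte gene Ccr2 was at 1.33, 1.86 and 1.53 TPM. The B cell list, led by the immunoglobulin gene Ighm (7.39 ± 1.39), came to 16.8 ± 2.56 TPM. The neutrophil list came to 7.18 ± 1.37, the mast cell list to 6.99 ± 3.40, the T cell list to 3.37 ± 0.428 and the NK cell list to 2.69 ± 1.01 TPM. The B cell, neutrophil, mast cell, T cell and NK cell sums are each lower than Lyz2 alone.

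Lung and kidney markers were nearly absent, and other tissues that could be carried over left low sums. The lung surfactant gene Sftpc and the liver gene Alb had 0 reads in all 3 libraries, which allows up to 3 reads in each. The 10 lung markers summed to 0.618, 1.74 and 1.15 TPM and the 6 kidney and urothelium markers to 0.347, 0.153 and 0.155. The adipocyte list came to 23.9, 26.7 and 20.4 TPM and the thymus list to 9.94, 8.48 and 7.59. Of 6 tested adipocyte markers 3 reached a 2-fold range and 5 were lowest in WT 3, against 4.82% and 32.5% of all genes tested. The count of 3 depended on the settings, as given further on. Liver markers came to 25.6 ± 3.59 TPM, most of it from Trf (20.3 ± 2.54). Blood left more: the haemoglobin genes Hbb-bs (548, 479 and 321 TPM), Hba-a2 (479, 450.1 and 335) and Hba-a1 (331, 238 and 160.5) all ran from high in WT 1 to low in WT 3. Adult haemoglobin copies are nearly identical, so the division of reads between Hba-a1 and Hba-a2 is uncertain.

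Most genes were close between the libraries. Of 13829 genes tested, 666 (4.82%) were variable, meaning that the highest library was at least 2-fold the lowest on log2(normalised count + 1), and fold ranges below are on that scale. Most of these stood low: 24.7% of genes with a mean of 10 to 30 counts were variable, against 0.708% of those with 100 to 300 counts. The median coefficient of variation (CV) was 24.9% at 10 to 30 counts, where counting reads alone gives 24.1%. Above 10000 counts it was 2.52% against 0.797%. Long intergenic non-coding RNAs were variable in 53 of 275 cases (19.3%) and protein-coding genes in 470 of 12741 (3.69%), with median levels of 30.2 and 237 counts. Without WT 1, 271 genes were variable, without WT 2 369 and without WT 3 340.

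**Figure D4:**
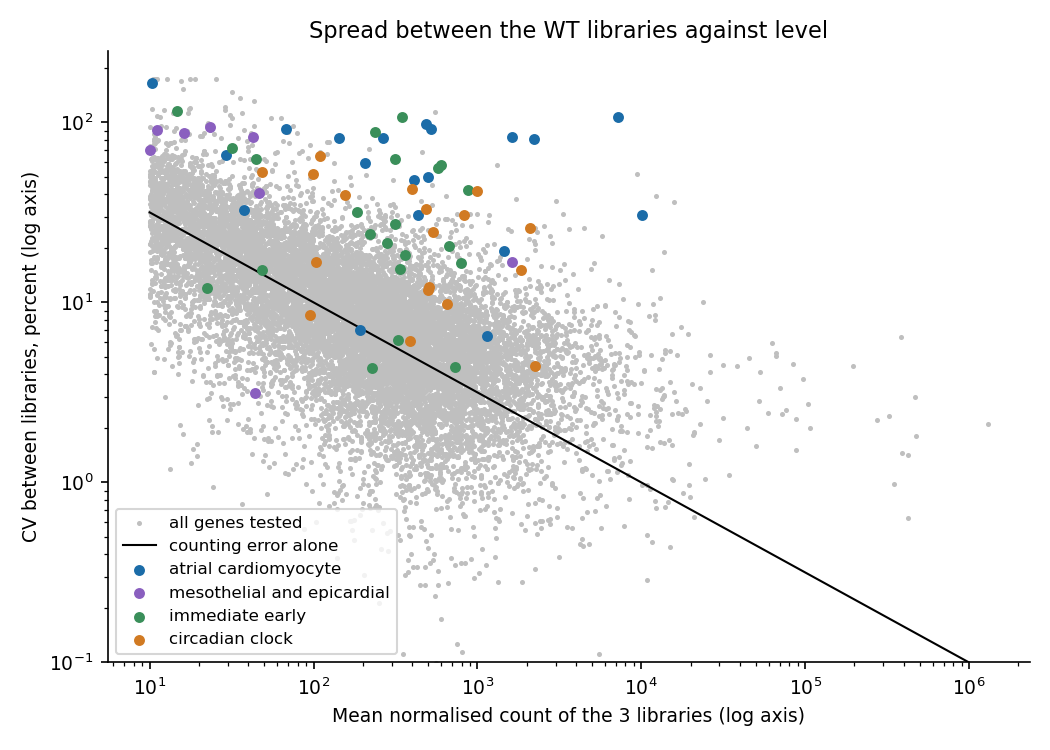
CV between the 3 WT libraries (percent, log axis) against the mean normalised count (log axis) of 13829 genes, with the line that counting error alone gives. Coloured points are the tested members of the atrial, mesothelial, immediate early and clock lists; Nppa, an atrial gene, lies at a CV of 107%.

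The steadiest genes averaging 1000 or more normalised counts were 2610507B11Rik (5529, 5540.5 and 5539, CV 0.112%), the G protein subunit Gnb1 (1340.4, 1337 and 1333), the ubiquitin ligase subunit Skp1a (1877, 1874 and 1884) and the complex III core gene Uqcrc2 (10735, 10768 and 10796). Otud6b, the kinase Akt2, Cisd2, the peroxiredoxin Prdx5, the proteasome gene Psmd3 and the casein kinase Csnk1g2 (CV 0.425%) followed. These CVs lie below what counting reads alone gives and were picked as the lowest of 1745 genes. Of 20 genes often used as references, Gapdh had a CV of 1.10%. Only Tfrc, the transferrin receptor that takes up iron, was variable among them, at 2142, 619 and 1214 normalised counts, with WT 2 lowest.

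Genes of the atria formed the largest group among the variable genes of the cell type lists. Of 19 tested atrial markers 13 (68.4%) were variable, beside 4.82% of all genes tested, and the list's median range was 4.33-fold. The order WT 1 over WT 2 over WT 3 was found in 16 of 19 members (84.2%) and in 17.1% of all genes tested. Nppa, the atrial natriuretic hormone at chr4:148000722-148002079 (GRCm38), was at 16127, 3616 and 1977 normalised counts in WT 1, WT 2 and WT 3, a range of 8.15-fold. WT 1 was far above the other libraries for this gene.

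The atrial light chains followed the same order, Myl7 at 3103, 1285 and 483 and Myl4 at 4217, 1737 and 703 normalised counts. Sln was at 1052, 383 and 122, and the muscle kinase genes Sbk3 at 1033, 259.7 and 169.5 and Sbk2 at 349, 142 and 130.4. WT 1 was highest in each. Mybphl, a myosin-binding protein of the atria, was at 508, 199 and 87.3, the gap junction gene Gja5 at 277, 89.2 and 63.2, Fgf12 at 137, 51.0 and 16, Dkk3 at 700.3, 585 and 222 and Stard10 at 636, 334 and 265. Dkk3 was low in WT 3 alone, while Gja5 was high in WT 1 alone. The processing enzyme Pam, at 13540, 9466 and 7482, and the transcription factor Tbx5, at 579, 412 and 315, kept the order with ranges of 1.81- and 1.83-fold.

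Some members of the atrial list differed little or ran otherwise. The channel genes Kcnj3 (1769.9, 1296 and 1277) and Kcnj5 (1197, 1190.5 and 1065) and the atrial transcription factor Nr2f2 (200.1, 199.6 and 176) kept the order but stayed within 1.39-fold. Dbh, of noradrenaline synthesis, was at 48.9, 24.5 and 40.1, with WT 2 lowest. Bmp10, a ligand of the right atrium, ran the other way with 0, 1 and 30 reads, at least 9.85-fold higher in WT 3 than the 3-read limit of WT 1. Hamp, also known from the right atrium, was at 10.2, 48.9 and 28.9 normalised counts, lowest in WT 1, and Cyp2j13 had at most 0.930 estimated reads. Without WT 1, 7 atrial members were variable, beside 1.96% of all genes tested in that pair.

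**Figure D5:**
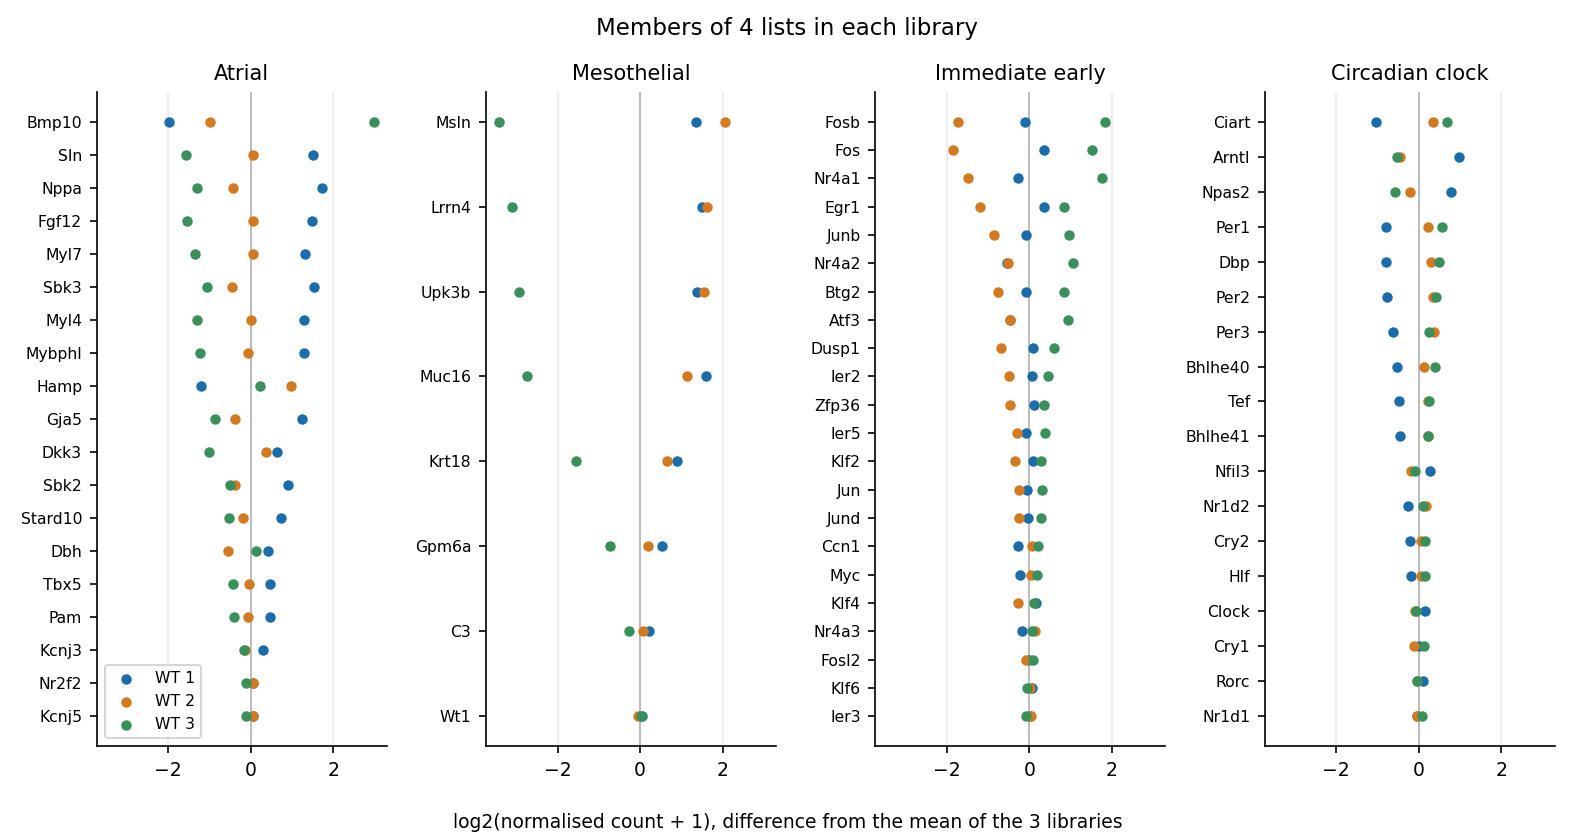
Deviation of each tested member from its mean over the 3 WT libraries, log2(normalised count + 1), on the horizontal axis. The 4 panels hold the atrial, mesothelial, immediate early and clock lists, with 1 row per gene and 1 colour per library. For most atrial members WT 1 lies highest and WT 3 lowest. Most mesothelial members are lowest in WT 3 and most immediate early members highest in WT 3. In WT 1 the clock members lie on both sides of the mean.

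Markers of the mesothelium, the thin outer lining of the heart, were nearly missing from WT 3, on few reads. Mesothelin (Msln) had 26, 44 and 0 reads in WT 1, WT 2 and WT 3, at least 14.3-fold higher in WT 2 than the 3-read limit of WT 3. Upk3b had 58, 68 and 2 reads, Lrrn4 23, 26 and 0 and Muc16 19, 14 and 0. The keratin Krt18 had 15, 13 and 2 reads, and Upk1b, Krt19 and Bnc1, which were too low to be tested, had 0 reads in WT 3 and 5 to 15 in WT 1. Gpm6a was at 63.1, 49.98 and 26.1 normalised counts. Altogether 6 of 8 tested markers were variable and 7 were lowest in WT 3, against 4.82% and 32.5% of all genes tested. Wt1, which endothelial cells also express, was flat at 44.8, 42.1 and 44.1, and the complement gene C3 stood at 1854, 1668 and 1321. Without WT 3, 0 of 9 tested markers were variable, beside 2.46% of all genes in that pair.

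Most valve markers were also lowest in WT 3. Of 9 tested valve markers, 9 were highest in WT 2 and 8 lowest in WT 3, against 33.2% and 32.5% of all genes tested. The matrix gene Fmod was at 109.9, 220.5 and 67.2 normalised counts, Comp at 99.7, 136 and 57.2 and Chad at 41.7, 48.0 and 19.1. Of 11 smooth muscle markers 7 were lowest in WT 3 and 6 highest in WT 2, less far above these shares. Tagln was at 334, 409 and 199, Cnn1 at 20.4, 51.9 and 9.03 and Lmod1 at 57.0, 72.5 and 34.1. Myh11, the smooth muscle heavy chain, shared that order at 629, 824 and 453, while Acta2 ran from WT 1 downwards, at 1493, 1137 and 849. Tagln, Lmod1, Cnn1, Comp, Chad and Myh11 were picked for their spread. How much of each chamber, valve or surface entered each library is not in the labels, and its part in these differences was not tested.

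Immediate early genes, which cells switch on within minutes of a stimulus, were highest in WT 3. Of 22 tested members 9 were variable, 18 were highest in WT 3 and 16 lowest in WT 2, against 4.82%, 32.1% and 33.4% of all genes tested. As background, many of these genes are induced through cyclic AMP response elements (CRE) near their start. The bases upstream of Nr4a1, an orphan nuclear receptor, and Fos, a subunit of the AP-1 factor, are shown because they have the widest ranges among members averaging 50 or more normalised counts, and hold the CRE core TGACG, in capitals on either strand. They are the 250 bases before the RefSeq start in GRCm38.p6, for Nr4a1 chr15:101266596-101266845 and for Fos chr12:85473640-85473889, both on the plus strand.
Nr4a1: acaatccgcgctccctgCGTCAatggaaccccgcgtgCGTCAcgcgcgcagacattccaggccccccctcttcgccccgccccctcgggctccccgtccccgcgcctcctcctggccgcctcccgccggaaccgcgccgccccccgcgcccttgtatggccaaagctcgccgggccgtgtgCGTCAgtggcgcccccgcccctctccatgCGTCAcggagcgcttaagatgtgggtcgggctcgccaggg
Fos: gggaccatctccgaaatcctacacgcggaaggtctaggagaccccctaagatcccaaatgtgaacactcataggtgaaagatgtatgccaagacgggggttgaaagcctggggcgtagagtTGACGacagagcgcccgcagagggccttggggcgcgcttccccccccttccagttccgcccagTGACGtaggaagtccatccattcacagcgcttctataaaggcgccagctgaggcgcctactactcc
The Nr4a1 stretch holds 4 matches and the Fos stretch 2. Over the immediate early list, 15 of 24 promoters of 20 matched genes hold the core (62.5%), against 17.8% of 32851 promoters of that length. The core is contained in the full CRE TGACGTCA, and a match is a description of the letters only.

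Nr4a1, whose stretch is printed above, was at 188, 81.3 and 774 normalised counts in WT 1, WT 2 and WT 3, and Fos at 207, 44.1 and 463. WT 3 was highest and WT 2 lowest for both. The AP-1 gene Junb was at 259, 149 and 529, the zinc finger factor Egr1 at 662, 225 and 919.9, the growth inhibitor Btg2 at 489.6, 306 and 927 and the phosphatase Dusp1 at 876, 510.1 and 1249. The order of the libraries was the same in these genes. Atf3 (28.5, 28.4 and 77.2) and Nr4a2 (18.3, 18.6 and 58.1) were high in WT 3 alone, and Fosb had 8, 2 and 34 reads. Jun (632, 557 and 824) had a smaller range, and Ier3 (232, 236 and 217), Klf6 (756, 737 and 694) and Fosl2 (322, 309.6 and 349) were close. Without WT 3, 3 of 21 members were variable, beside 2.46% of all genes. The inducible heat shock gene Hspa1a was also highest in WT 3, at 20.3, 37.4 and 54.9.

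Genes of the circadian clock set WT 1 apart. The clock is a loop in which the factors Arntl, Clock and Npas2 switch on the Per and Cry repressors and output factors such as Dbp through E-box sequences, CACGTG. The 250 bases before the start of Ciart (chr3:95882229-95882478, minus strand) and of Per1 (chr11:69098699-69098948, plus strand) are shown from RefSeq, GRCm38.p6, because both genes were low in WT 1 and hold this motif, in capitals; for Per1 1 of its 2 listed starts was chosen for the motif.
Ciart: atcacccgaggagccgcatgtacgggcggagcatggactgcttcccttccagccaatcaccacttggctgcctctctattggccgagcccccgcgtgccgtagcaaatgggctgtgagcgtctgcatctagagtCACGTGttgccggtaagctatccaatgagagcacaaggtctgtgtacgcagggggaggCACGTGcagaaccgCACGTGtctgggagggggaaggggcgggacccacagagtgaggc
Per1: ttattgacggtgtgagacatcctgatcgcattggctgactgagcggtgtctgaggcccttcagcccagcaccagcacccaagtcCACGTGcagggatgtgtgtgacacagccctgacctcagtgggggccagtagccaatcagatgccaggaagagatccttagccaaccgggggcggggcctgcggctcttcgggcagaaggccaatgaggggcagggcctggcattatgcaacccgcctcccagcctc
Ciart holds 3 matches and Per1 1. Of other clock genes low in WT 1, Tef holds 1 before each listed start, while Dbp and Per3 hold 0. Over the clock list, 6 of 20 promoters of 15 matched genes hold an E-box (30%), against 6.02% of all 32851.

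Of 18 tested clock genes 6 were variable, beside 4.82% of all genes tested, on both sides of the loop. The activators Arntl, at 191, 70.6 and 66.2 normalised counts, and Npas2, at 77.4, 38.2 and 29.1, were high in WT 1. Ciart (42.7, 113 and 143) and Per1 (215, 433 and 548), whose upstream bases are printed above, were low in WT 1. So were Per2 (84.5, 185 and 195) and Dbp (531, 1146 and 1315), and, below the 2-fold limit, Per3 (303, 605 and 558) and Tef (1466, 2370.5 and 2424). WT 2 and WT 3 stood closer to each other than to WT 1 in these genes. Nr1d1, a repressor of Arntl, was flat at 2209, 2197 and 2376, as was Clock at 729, 613 and 625. Without WT 1, 0 clock genes were variable, beside 1.96% of all genes. The hour at which each heart was taken is not in the labels, and its part was not tested.

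The glucocorticoid and fasting list shares 1 gene, Per1, with the clock list. Of 15 tested genes 4 were variable, 10 were highest in WT 3 and 10 lowest in WT 1, against 4.82%, 32.1% and 34.1% of all genes tested. The factor Zbtb16 was at 226, 328 and 814 normalised counts, high in WT 3, and the metal-binding Mt2 at 79.4, 197 and 145, low in WT 1. The fasting gene Pdk4, which turns off pyruvate oxidation, was close at 8688, 9366 and 9561.

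A further set of genes separated WT 1. Nnt, the mitochondrial enzyme that makes NADPH (GRCm38, chr13:119335448-119408997), was at 14945, 6688 and 6438 normalised counts, so that WT 1 stood at 2.28 times the mean of the other libraries. Mmrn1, a gene of lymphatic endothelium and platelets at chr6:60924976-60989378, had 2, 127 and 84 reads. It was nearly silent in WT 1.

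Most neighbours of Nnt did not share its pattern. Of 9 other tested genes within 2000000 bases of Nnt, 7 stood within 2-fold in WT 1 against the mean of the other libraries, and Tmem267 (20.3, 46.1 and 37.6 normalised counts) was lower in WT 1. Other lymphatic genes did not follow Mmrn1, with Prox1 at 1655, 1228 and 1232 and Lyve1 at 185, 193 and 219. As background, the substrain C57BL/6J carries a deletion within Nnt; the strain is not in the labels, and its part was not tested.

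Other genes with the same split include Wdfy1 (395, 135 and 121), Tmem163 (122, 22.7 and 20.3), Plekha7 (159.8, 40.2 and 38.9) and Eps8l1 (177, 65.7 and 44.1 normalised counts), all high in WT 1. Spon2 (104, 32.3 and 39.1), Rab4a (123, 28.4 and 43.1) and the amino acid carrier Slc7a7 (90.1, 32.0 and 45.2) were high there too. Plac9b (18.7, 139.9 and 203) and Dynlt1b (25.9, 117 and 136) were low in WT 1, but have close copies in the genome, so their counts are uncertain. When each of the 40 most variable genes is assigned to the library that lies outside its closest pair, with no minimum gap, WT 1 is the high library in 19 and the low one in 4.

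Further genes among the 40 most variable were high or low in different libraries. AY036118, a non-coding gene on chromosome 17 that resembles ribosomal RNA and is therefore uncertain, had the widest range, at 398, 1240.1 and 12.2 normalised counts. The matrix gene Cilp2 was at 140.5, 31.4 and 18.1, highest in WT 1, and the retinoic acid hydroxylase Cyp26b1 at 156, 22.5 and 151, low in WT 2. The imprinted non-coding RNA H19 was at 332, 132 and 166, the matrix gene Podn at 471, 246 and 199 and the protease Adam19 at 798, 418 and 363, each highest in WT 1. Tcf15, a factor of cardiac endothelium, was at 73.4, 70.6 and 161, high in WT 3, and Nrn1 at 86.5, 205 and 107, high in WT 2. Among hypertrophy genes, Ankrd1, at 9306, 17723 and 9638, and Acta1, at 2823, 4196 and 2014, were highest in WT 2, and Nppb, the ventricular natriuretic hormone, was at 1330.3, 1106 and 904.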

How the data were processed

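Per the labels' protocols, Trizol RNA of 3 wild-type whole-heart samples went through Ovation amplification before TruSeq library preparation. Tools listed in the submitters' processing notes are kallisto 0.43.1, RSEM 1.2.20, cutadapt and CASAVA 1.8.2, with the build GRCm38; the role of each tool, the scaling, the annotation release and the handling of strand were not given in the sources used here. Both tables hold a signal per gene, as deposited by the authors. The values of the first are, from their steps, estimated reads plus 0.5, divided by an effective library size, and those of the second TPM rescaled between libraries. TPM were used for levels and shares, as percent of each library's sum. Amplification and TPM denominators can shift levels between genes alike in all 3 libraries.

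Reads were recovered from the first table and multiplied to the mean effective size, giving normalised counts. Low values need not be whole, since the authors' counts are estimates. Genes averaging 10 or more normalised counts are the genes tested, and a gene was called variable when the highest library was at least 2-fold the lowest on log2(normalised count + 1). Genes were ranked by CV after subtracting counting error. No p-value was computed. The spread calculation was checked on simulated data. Intervals and limits cover counting error only. Means are given ± SD over n = 3. 68 lists of 999 symbols were used, 2 of them unmatched.

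The members and lists were chosen with earlier results of these data known. Named genes are the 30 most abundant protein-coding genes, the leading 4 of each list by TPM, isoform pairs, atrial members, the 40 most variable genes with a mean of at least 50 and the 10 steadiest with a mean of at least 1000; other genes were named after their values were seen. Upstream sequences are from RefSeq (GRCm38.p6). The motifs searched on both strands were the E-box, CRE (TGACGTCA), its core TGACG, D-box (TTATGTAA), CArG box and ROR element, held by 6.02%, 1.55%, 17.8%, 0.819%, 1.47% and 0.332% of promoters. Python 3.11.15, pandas 2.3.3, numpy 2.4.6 and matplotlib 3.10.9 were used. Alternatives were other tables, gene sets, pseudocounts, filters, scalings and leaving out each library. Some list members are not reported here.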

Additional observations from a re-analysis of the deposited data

How the results depend on the processing

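Shares depended on the table and the denominator. Leaving out 1 of the 3 libraries gave 44.2% to 44.6% for the mitochondrial genome and 41.8% to 42.1% for the 10 most abundant genes. With 3 libraries such a mean always stays within 1 SD, so this check could not have failed. From the count table instead of TPM, the mitochondrial genome held 33.3%, the 10 most abundant genes 33.1%, the sarcomere 8.25%, the nuclear respiratory chain 3.48%, ribosomal proteins 1.09% and matrix 0.561%, and 50% of the signal took 80.7 genes on average. Outside the mitochondrial genome these were 18.6% for the 10 most abundant genes, 12.3%, 12.1%, 4.56%, 0.385% and 205 genes. That set still holds the nuclear copies of mitochondrial genes, and the mitochondrial share has no value there. Over genes in both tables the mitochondrial genome held 47.3% and the 10 most abundant genes 44.4%.

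The count of variable genes was 405 with a pseudocount of 5, 108 with a mean of at least 50, 6140 with no filter, 337 on TPM (of which 105 are among the 666), 1982 at 1.5-fold and 271 to 369 when 1 library was left out; the other scalings and a pseudocount of 0.5 gave 662 to 704. Variable atrial members numbered 7 to 13 when 1 library was left out, immediate early members 3 to 9 and clock members 0 to 6, with 10 at 1.5-fold. Variable mesothelial members numbered 10 of 12 with no filter, 2 of 5 on TPM and 0 to 4 when 1 library was left out. With a mean of at least 50 only 1 member was left to test, and it was not variable. Variable adipocyte members numbered 1 of 6 with a pseudocount of 5, 0 of 4 on TPM and 0 of the 2 averaging 50 or more. They numbered 5 of 6 at 1.5-fold, 5 of 9 with no filter and 0 to 4 when 1 library was left out. The other scalings and a pseudocount of 0.5 kept 3 of 6. No paired analysis was possible because only 1 group was described and no test was made.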

Other observations

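The following long non-coding RNAs are listed in the count table only. The nuclear paraspeckle RNA Neat1 was at 12675, 13333 and 12959 normalised counts in WT 1, WT 2 and WT 3, and Malat1 at 6462, 8313 and 7274. The imprinted RNA Meg3 was at 266, 314 and 271 and Kcnq1ot1 at 326, 332 and 471, highest in WT 3. Conduction system genes were low, with the pacemaker channel Hcn4 at 85.5, 98.0 and 116 normalised counts, lowest in WT 1, against the order of most atrial genes. The insulin-degrading enzyme Ide was at 1083, 1694 and 2361, and the apyrase genes Entpd4 (768, 1389 and 1397) and Entpd4b (479.6, 888 and 869) were low in WT 1; the last pair are close copies, so the division of reads between them is uncertain.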
